A study of Mus musculus with 6 samples.

Results

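The mitosis genes are 36 genes of chromosome segregation and cell division, taken by symbol from the gene column of the 6 per-sample tables of mouse colon RNA. They were 36 of 24421 gene rows, and each matched 1 row in every sample. The DSS group held 3 colon samples from mice with chronic colitis induced by dextran sulfate sodium, a polymer that damages the lining of the colon when animals drink it. The control group held 3 colon samples from mice labelled control. All 6 samples carried the strain label C57BL/6 and an age label of 7 weeks, and no other allele or agent was named for either group. The sources used here do not state the dose or length of the DSS treatment. The study asked whether acetylation of histone H3 at lysine 27 has a part in intestinal inflammation, and only the RNA values were used here. The labels leave unsaid whether each sample was a separate animal, so the p-values rest on the spread between the samples alone, which may be technical.

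Transcripts of mitosis genes are made in waves. Their promoters are held silent in resting cells by the DREAM complex, and in dividing cells the factors B-Myb and FoxM1 switch the same promoters on in G2 and mitosis, after which the anaphase-promoting complex degrades many of the proteins. In colon the dividing cells are mainly the transit-amplifying and stem cells low in the crypts, with further dividing cells in lymphoid follicles and in tissue under repair. In a piece of whole tissue the level of these transcripts therefore follows both the number of dividing cells and the RNA each of them holds, and fewer cells of a type and less RNA per cell cannot be told apart.

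The values were FPKM, that is fragments of a transcript per kilobase of its length, relative to all mapped fragments of the sample, and levels are given in FPKM throughout. FPKM values summed to between 629036 and 678076 in DSS samples and between 609544 and 638096 in control samples, and between 11849 and 12543 genes per sample reached 1 FPKM. The number of reads behind a value is unknown, because the values show no steps of whole reads. A gene was tested if 3 or more samples reached 1 FPKM, which left 12348 genes. All 36 mitosis genes passed this filter: each reached 1 FPKM in every control sample, and none was listed at 0 in any sample. In DSS 2, 27 of the 36 reached 1 FPKM and 9 did not. The epithelial marker Epcam was high in all 6 samples, at 1017, 786 and 680 FPKM in DSS colon and 1248, 1095 and 974 FPKM in control colon. As a marker of epithelium in general, Epcam does not tell colon from other epithelial tissue.

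The 3 DSS samples gave 3 different levels of mitosis transcripts, and no gene separated the groups. Summed over the 36 genes the level was 633, 122 and 431 FPKM in DSS 1, DSS 2 and DSS 3, against 346, 391 and 247 FPKM in control 1, control 2 and control 3. DSS 1 thus lay above, and DSS 2 below, the whole control range, while DSS 3 lay above it by a smaller margin. DSS 3 was inside the control range after scaling, at 394 against a highest control of 399 with the upper quartile and at 387 against 397 with the median of ratios. The mean of the sum was 395 ± 257 FPKM over the DSS samples and 328 ± 73.5 FPKM over the controls (SD, n = 3 each). DSS 2 was the lowest of the 6 samples for 36 of 36 mitosis genes, a place it held for 26.3% of all tested genes. DSS 1 was the highest of the 6 for 35 of the 36, against 22.3% of all tested genes, and both held together for 35 of the 36, against 7.23% of all tested genes. The exception was Plk1, whose highest sample was DSS 3. Relative to the control mean the median gene stood at 1.92 times in DSS 1 (range 1.28 to 2.53), at 0.336 times in DSS 2 (range 0.153 to 0.582) and at 1.21 times in DSS 3 (range 0.687 to 1.92).

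**Figure D1:**
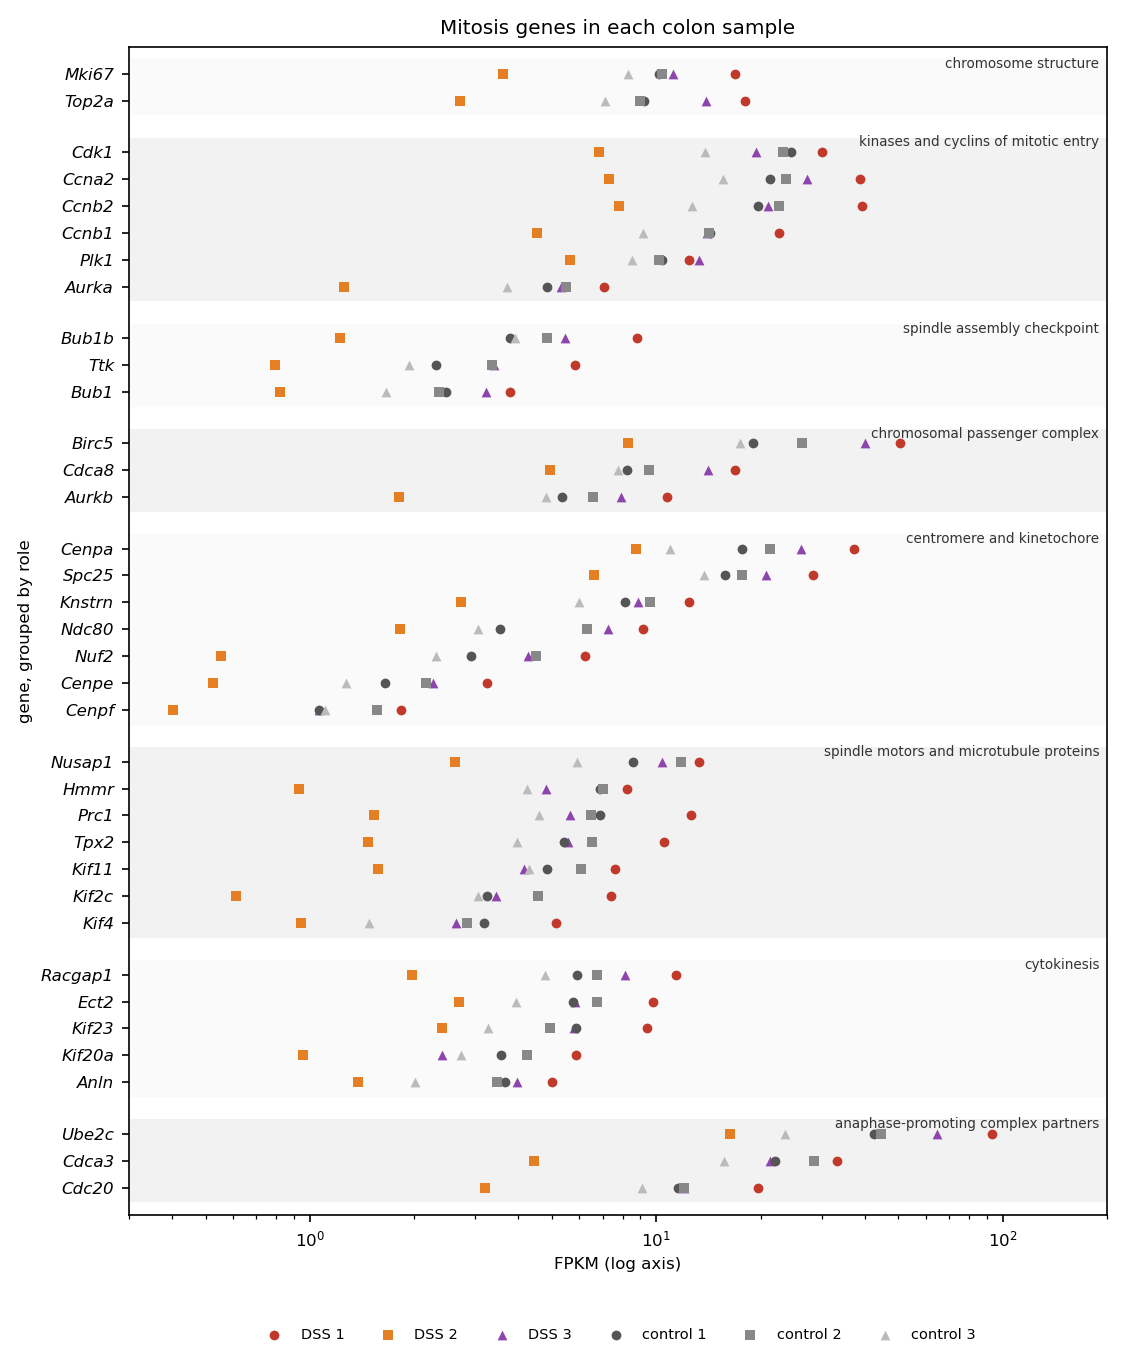
Each row is a mitosis gene, grouped by role, and each point is its level in 1 sample on a log axis of FPKM. Colours mark the 3 DSS samples and grey tones the 3 control samples. DSS 2 is the leftmost point in all 36 rows and DSS 1 the rightmost in all rows but that of Plk1.

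DSS 3 divided the genes. It lay above every control sample for 17 genes, within the control range for 17, and below it for Kif11 and Kif20a. Of all tested genes, 21.6% had DSS 3 below every control. The 17 genes with both DSS 1 and DSS 3 above every control compare with 36.6% of all tested genes in that order. This count depended on the scaling of the samples, being 13 with upper-quartile and 11 with median-of-ratios scaling. The share of all tested genes fell as well, to 23.8% with the first and 21.8% with the second. Anln, Cenpe, Mki67 and Ttk dropped out of the count under both scalings, and Bub1b and Plk1 under the second alone. DSS 2 stayed lowest for all 36 genes under both scalings, against 24.8% and 23.2% of all tested genes. DSS 1 stayed above every control for all 36 under the first and for 34 under the second, without Plk1 and Hmmr. The shares of all tested genes in that order were 34.6% and 32.0%. Within the control group the spread was smaller. Control 3 was the lowest control sample for 34 of the 36 genes, against 25.6% of all tested genes, and the highest control was control 2 for 27 genes and control 1 for 9. The ratio of the highest to the lowest control had a median of 1.55 (range 1.22 to 2.15), whereas the ratio of DSS 1 to DSS 2 had a median of 5.35 (range 2.20 for Plk1 to 12.1 for Kif2c). The SD of log2(FPKM + 1) was larger in DSS than in control colon for all 36 genes, with medians of 1.03 and 0.30, against 0.25 and 0.19 over all tested genes, 63.0% of which had the larger SD in DSS.

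Promoter sequence is shown here because genes of mitosis are known to share promoter elements. The part of these elements in the levels across samples was not tested. RefSeq promoter windows on GRCm38.p6, from 250 bases before to 50 bases after the annotated start, were matched by symbol for 32 of the 36 genes, the others being Kif20a, Tpx2, Ccna2 and Aurkb. They were searched on both strands for TTTGAA, the core of the cell cycle genes homology region (CHR) through which DREAM and B-Myb complexes bind, and for CCAAT, the box bound by NF-Y. The stretches of 5 genes are printed, each covering the 150 bases before the start, 5′ to 3′ on the strand of the gene. Those of Top2a, Mki67, Ect2 and Kif11 were picked because they hold both motifs and lie outside the annotated bounds of their own genes. They are therefore not typical of the 32 genes, and overlap with exons of other genes was not checked. Matches to either motif are in capitals (ATTGG and TTCAAA are the same motifs on the other strand).
Top2a: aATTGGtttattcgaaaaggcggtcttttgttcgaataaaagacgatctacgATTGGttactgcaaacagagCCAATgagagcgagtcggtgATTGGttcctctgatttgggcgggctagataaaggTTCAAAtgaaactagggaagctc
Mki67: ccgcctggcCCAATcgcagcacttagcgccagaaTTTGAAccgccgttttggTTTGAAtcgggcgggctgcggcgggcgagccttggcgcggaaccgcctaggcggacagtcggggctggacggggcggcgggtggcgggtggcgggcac
Ect2: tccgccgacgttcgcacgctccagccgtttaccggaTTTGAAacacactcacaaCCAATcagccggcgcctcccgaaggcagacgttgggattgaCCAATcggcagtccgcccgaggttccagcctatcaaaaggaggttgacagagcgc
Kif11: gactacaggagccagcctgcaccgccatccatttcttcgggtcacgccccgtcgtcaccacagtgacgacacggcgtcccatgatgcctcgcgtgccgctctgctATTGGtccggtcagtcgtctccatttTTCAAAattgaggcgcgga
Birc5: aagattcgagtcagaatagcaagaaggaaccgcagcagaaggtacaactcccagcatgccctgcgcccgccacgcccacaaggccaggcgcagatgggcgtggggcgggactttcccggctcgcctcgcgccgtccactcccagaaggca
The first, of Top2a, lies at chr11:99024190-99024339 on the minus strand and holds 4 NF-Y boxes and 1 CHR match. That of Mki67 lies at chr7:135716380-135716529 on the minus strand and holds 1 NF-Y box and 2 CHR matches. The stretch of Ect2, at chr3:27153879-27154028 on the minus strand, holds 2 NF-Y boxes and 1 CHR match. The stretch of Kif11, at chr19:37376232-37376381 on the plus strand, holds 1 of each. Birc5, at chr11:117849087-117849236 on the plus strand, is shown as a promoter without a match to either motif, and no match says only that these letters are not in this window.

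Of the 32 genes with a window, 25 held TTTGAA (78.1%), against 20.2% of the 27025 genes in the promoter table and 14.4% of the 9313 that were also tested here. CCAAT was found in 25 (78.1%), against 41.1% of all genes in the table and 42.7% of those tested. Both motifs were found in 22 (68.8%), against 8.97% and 6.95%. Windows of Birc5, Knstrn, Nuf2 and Nusap1 held neither. Windows of Cdca3, Cdca8, Kif2c and Kif4 lie wholly inside the GENCODE vM21 bounds of their genes, so they need not hold the most upstream start. Of 34 windows of these genes, 30 ended in sequence found in a transcript of the gene. With 1 window per gene, 41 of 61 CCAAT matches began within the 100 bases before the start and 24 of 31 TTTGAA matches within 50 bases on either side of it, and 1 TTTGAA match shared a base with a CCAAT match. A match is a description of the sequence and was not tested for binding.

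**Figure D2:**
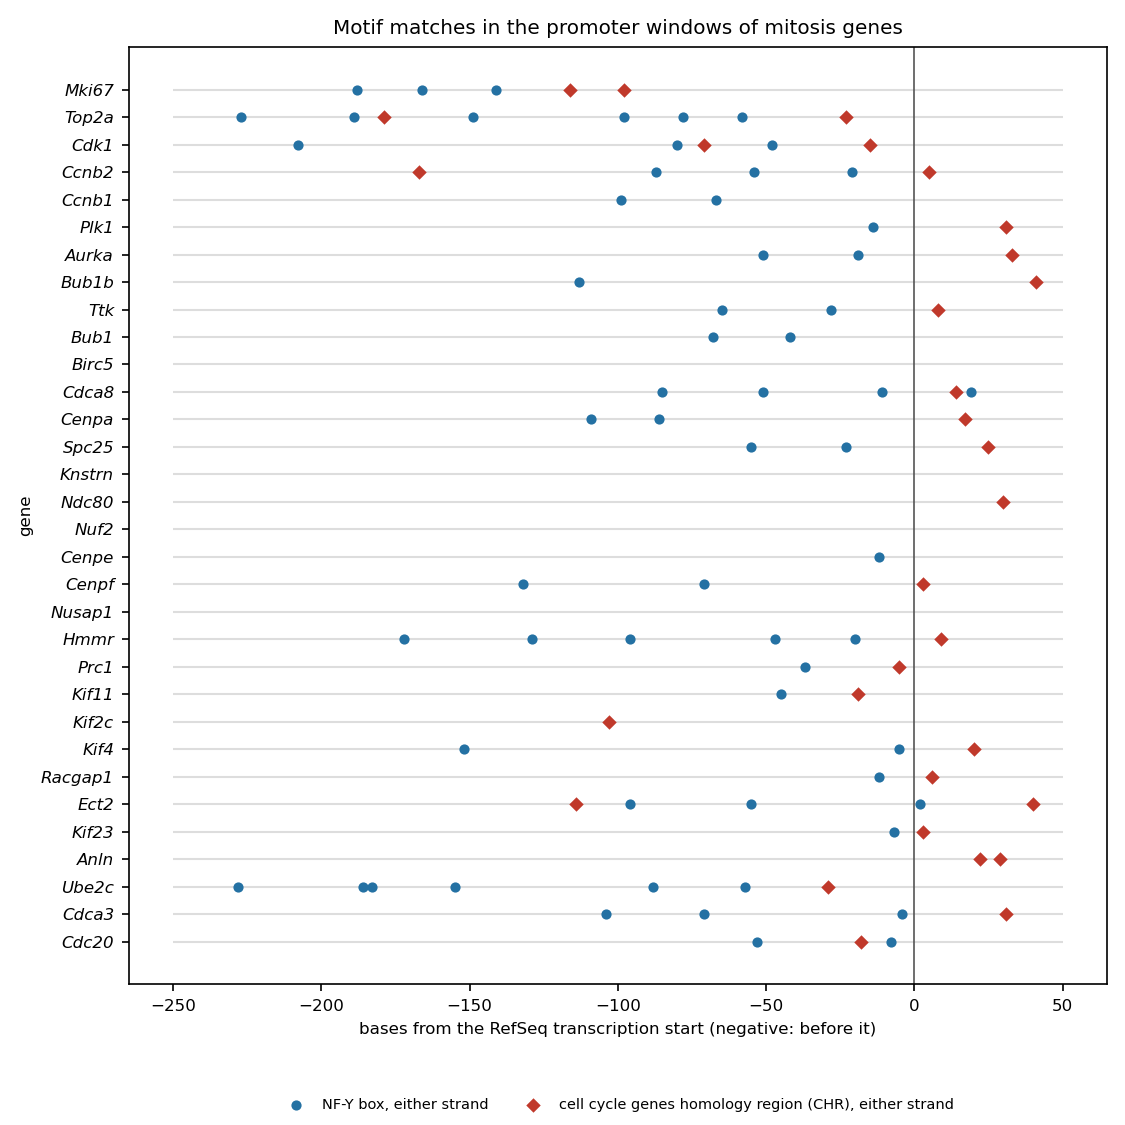
Positions of motif matches in the RefSeq promoter windows of 32 mitosis genes, in bases from the annotated start, with 1 window per gene. Circles mark NF-Y boxes and diamonds CHR matches on either strand. Most circles lie within 100 bases before the start and most diamonds within 50 bases of it, and 4 rows are empty.

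Both genes of chromosome structure had their highest level in DSS 1 and lowest in DSS 2. Mki67, which encodes the Ki-67 protein that coats mitotic chromosomes and serves as a marker of dividing cells, stood at 16.9, 3.61 and 11.2 FPKM in DSS colon and at 10.2, 10.4 and 8.26 FPKM in control colon. Top2a, a topoisomerase that untangles sister DNA molecules, stood at 18.04, 2.72 and 13.9 FPKM in DSS colon and at 9.20, 8.97 and 7.13 FPKM in control colon. For both genes DSS 1 and DSS 3 lay above all controls and DSS 2 below all in the unscaled values, so the groups overlapped. After either scaling DSS 3 no longer lay above all controls for Mki67. A transcript at least 95% identical over at least 200 bases exists for Mki67, and the value of Mki67 is uncertain to that extent.

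Kinases and cyclins of mitotic entry, 6 genes, summed to 150.1, 33.4 and 100.2 FPKM in DSS colon and to 94.9, 99.4 and 63.5 FPKM in control colon. Cdk1, the kinase that drives entry into mitosis, had 30.05, 6.83 and 19.4 FPKM in DSS colon and 24.5, 23.3 and 13.8 FPKM in control colon. Its partner Ccnb1, cyclin B1, had 22.6, 4.52 and 14.0 FPKM in DSS colon and 14.3, 14.2 and 9.18 FPKM in control colon. For Cdk1 and Ccnb1 alike, DSS 3 lay inside the control range. Ccnb1 has 5 near-identical copies in the annotation, among them pseudogenes, and its value is uncertain. Ccna2, cyclin A2, which acts from S phase to early mitosis, had 38.6, 7.31 and 27.2 FPKM in DSS colon and 21.3, 23.7 and 15.6 FPKM in control colon, so that DSS 3 was above all controls. Ccnb2, cyclin B2, and Aurka, the kinase of spindle poles, had DSS 3 within the control range. Plk1, a kinase of mitotic entry, spindle assembly and exit, was ordered differently from the other 35 genes. It stood at 12.4, 5.63 and 13.3 FPKM in DSS colon and at 10.4, 10.2 and 8.49 FPKM in control colon. Its DSS 2 level was 0.582 times the control mean, the highest such ratio of the 36, and DSS 3 exceeded DSS 1.

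The spindle assembly checkpoint, which delays anaphase until every chromosome is attached, was represented by Bub1, Bub1b and Ttk. Bub1b, which encodes the BubR1 subunit of the checkpoint complex, had 8.80, 1.22 and 5.44 FPKM in DSS colon and 3.79, 4.82 and 3.91 FPKM in control colon. Ttk, the kinase that starts checkpoint signalling, had 5.81, 0.794 and 3.39 FPKM in DSS colon and 2.32, 3.36 and 1.93 FPKM in control colon. Bub1, a kinetochore kinase that recruits the other checkpoint proteins, had 3.77, 0.822 and 3.22 FPKM in DSS colon and 2.47, 2.36 and 1.66 FPKM in control colon. In the unscaled values all 3 genes had DSS 1 and DSS 3 above every control and DSS 2 below every control. For DSS 3 this depended on scaling in Ttk and Bub1b.

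The chromosomal passenger complex corrects faulty attachments of chromosomes and later guides cytokinesis, and 3 of the genes encode subunits of it. Birc5, survivin, which anchors the complex at centromeres, stood at 50.6, 8.30 and 40.1 FPKM in DSS colon and at 19.0, 26.3 and 17.5 FPKM in control colon. Cdca8, borealin, stood at 16.9, 4.94 and 14.1 FPKM in DSS colon and at 8.25, 9.51 and 7.76 FPKM in control colon. Birc5 lies on chromosome 11, 117849251 to 117855743, and Cdca8 on chromosome 4, 124918465 to 124939311, in GENCODE vM21 on GRCm38. Aurkb, the kinase of the complex, stood at 10.8, 1.81 and 7.92 FPKM in DSS colon and at 5.33, 6.56 and 4.80 FPKM in control colon. The DSS 3 level of Birc5 was 1.92 times its control mean, the highest DSS 3 ratio of the 36 genes. In the annotation an antisense gene shares exon sequence with Cdca8, and reads of that gene cannot be told apart from it in a library without strand.

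Centromere and kinetochore genes, 7 in all, link chromosomes to spindle microtubules. Cenpa, the histone H3 variant that marks centromeres, stood at 37.2, 8.74 and 26.1 FPKM in DSS colon and at 17.7, 21.3 and 10.96 FPKM in control colon. Of the microtubule-binding NDC80 complex, Ndc80 had 9.14, 1.82 and 7.27 FPKM in DSS colon and 3.55, 6.32 and 3.05 FPKM in control colon. Nuf2, the partner of Ndc80 in that complex, had 6.24, 0.556 and 4.25 FPKM in DSS colon and 2.92, 4.48 and 2.31 FPKM in control colon. DSS 3 lay above all controls for Ndc80 and for the third member of the complex measured here, Spc25, and within the control range for Nuf2. The DSS 2 level was 0.172 times the control mean for Nuf2, against 0.422 for Ndc80 and 0.420 for Spc25. That of Nuf2 was under 1 FPKM, with an unknown number of reads behind it. Cenpe, a kinesin of kinetochores, Cenpf, a large protein of the outer kinetochore, and Knstrn, a kinetochore and spindle protein, were likewise highest in DSS 1 and lowest in DSS 2. Ndc80 has 2 near-identical copies in the annotation.

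Spindle motors and microtubule proteins, 7 genes, act on the spindle itself, and for none of the 7 was DSS 3 above every control. Kif11, a motor that pushes spindle poles apart, stood at 7.58, 1.58 and 4.16 FPKM in DSS colon and at 4.84, 6.06 and 4.28 FPKM in control colon, with DSS 3 below all controls. Hmmr, a spindle protein that is also known as a hyaluronan receptor, stood at 8.26, 0.929 and 4.80 FPKM in DSS colon and at 6.88, 7.03 and 4.25 FPKM in control colon. Kif2c, a kinesin that shortens microtubules, stood at 7.42, 0.613 and 3.44 FPKM in DSS colon and at 3.24, 4.56 and 3.06 FPKM in control colon. The widest contrast between DSS samples among the 36 genes was that of Kif2c, 12.1 times between DSS 1 and DSS 2. The lowest DSS 2 ratio to the control mean was that of Hmmr, 0.153. Both rest on DSS 2 levels under 1 FPKM, and the number of reads behind them is unknown. Tpx2, an activator of Aurora A on spindle microtubules, Nusap1, a microtubule bundling protein, Kif4, a chromosome-bound kinesin, and Prc1, which cross-links the microtubules of the central spindle, had DSS 3 within the control range.

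Cytokinesis genes, 5 in all, act at the central spindle and the cleavage furrow. Racgap1, a subunit of the centralspindlin complex, stood at 11.4, 1.97 and 8.11 FPKM in DSS colon and at 5.90, 6.73 and 4.78 FPKM in control colon. Kif23, the kinesin of the same complex, stood at 9.42, 2.40 and 5.79 FPKM in DSS colon and at 5.87, 4.93 and 3.26 FPKM in control colon. Ect2, the exchange factor that activates RhoA at the furrow, stood at 9.78, 2.69 and 5.81 FPKM in DSS colon and at 5.74, 6.76 and 3.94 FPKM in control colon. DSS 3 exceeded all controls for Racgap1 and lay within their range for Kif23 and Ect2. Anln, anillin, a scaffold of the contractile ring, stood at 5.01, 1.38 and 3.96 FPKM in DSS colon and at 3.66, 3.47 and 2.01 FPKM in control colon. Kif20a, a kinesin that carries the passenger complex to the central spindle, stood at 5.88, 0.959 and 2.41 FPKM in DSS colon and at 3.56, 4.22 and 2.74 FPKM in control colon. Its DSS 3 ratio to the control mean, 0.687, was the lowest of the 36 genes. Kif20a shares exon sequence with Cdc23 on the other strand, and Racgap1 has 1 near-identical copy, which makes these values uncertain.

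Partners of the anaphase-promoting complex included the most abundant gene of the 36. Ube2c, the ubiquitin-conjugating enzyme of that complex, stood at 93.3, 16.3 and 64.4 FPKM in DSS colon and at 42.6, 44.4 and 23.6 FPKM in control colon. Cdc20, which activates the complex at anaphase, stood at 19.6, 3.21 and 12.0 FPKM in DSS colon and at 11.5, 12.1 and 9.11 FPKM in control colon. Cdca3, a substrate of the complex also named trigger of mitotic entry, stood at 33.3, 4.44 and 21.4 FPKM in DSS colon and at 21.96, 28.5 and 15.7 FPKM in control colon. DSS 3 exceeded all controls for Ube2c alone among these 3. Ube2c overlaps Tnnc2 and Cdc20 overlaps Elovl1 on the other strand, so reads of those genes may be among their fragments. Counting all 36 genes, 11 shared exon sequence with another gene, 4 had a near-identical copy and 21 had neither. The 11 were Ccna2, Cdc20, Cdca8, Kif20a, Kif4, Knstrn, Nusap1, Plk1, Prc1, Top2a and Ube2c, and their values carry that uncertainty.

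The level of each gene relative to the others is described by its share of the summed 36. Ube2c made up 14.7%, 13.4% and 15.0% of the sum in DSS 1, DSS 2 and DSS 3, against 12.3%, 11.4% and 9.52% in the control samples, so every DSS sample lay above every control. Plk1 made up 1.96%, 4.61% and 3.09% in the same DSS samples, against 3.00%, 2.60% and 3.43% in controls, with DSS 1 and DSS 2 at opposite ends. Hmmr made up 1.30%, 0.761% and 1.11% in DSS samples, against 1.99%, 1.80% and 1.72% in controls, all DSS samples being lower. Cenpa also had a share above every control in all DSS samples, and Aurka, Kif11, Kif20a, Cdca3 and Knstrn had one below. For the other genes, most of the 36, the shares of the groups overlapped. The shares printed here were picked after their values were seen and were not tested. Shares of 1 sum depend on each other. No such shares were computed for other genes, so it is unknown how often the groups separate in this measure.

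Between the groups, no mitosis gene passed the test in either direction. In a limma fit across all tested genes (Benjamini-Hochberg adjusted p under 0.05), 0 of 36 were called, and 0 had an unadjusted p under 0.05. Across all tested genes 8.9% were called, 6.34% higher and 2.56% lower in DSS, and 28.3% had an unadjusted p under 0.05. The log2 differences of the 36 genes, DSS minus control on the log2(FPKM + 1) scale, ran from -0.56 for Hmmr to 0.38 for Ube2c, with a median of 0.02 against 0.13 over all tested genes. Positive values numbered 20 and negative values 16. Standard errors lay between 0.27 and 0.66, and adjusted p in limma between 0.543 and 0.995. The 95% intervals reached lowest for Cdca3 (-2.04 to 1.08) and highest for Ube2c (-1.11 to 1.87). Changes of several fold in 1 direction thus remained within the widest intervals. The narrowest interval was that of Cenpf, -0.78 to 0.48. The test does not show that the groups were alike. For Mki67 the difference was -0.08 ± 0.46 (SE, 95% interval -1.17 to 1.02), and for Top2a it was 0.12 ± 0.58 (SE, 95% interval -1.26 to 1.49). The groups overlapped for all 36 genes, whereas they did not overlap for 35.1% of all tested genes. The median of all tested genes was 0.13 without scaling, 0.02 with upper-quartile and -0.000285 with median-of-ratios scaling, and the share of calls that were higher in DSS was 71.2% without scaling, 53.8% with the first and 50.8% with the second. The median of the mitosis genes was -0.10 with the first and -0.12 with the second, below that of all tested genes as it was without scaling, and limma again called 0 of the 36 (0 at an unadjusted p under 0.05).

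**Figure D3:**
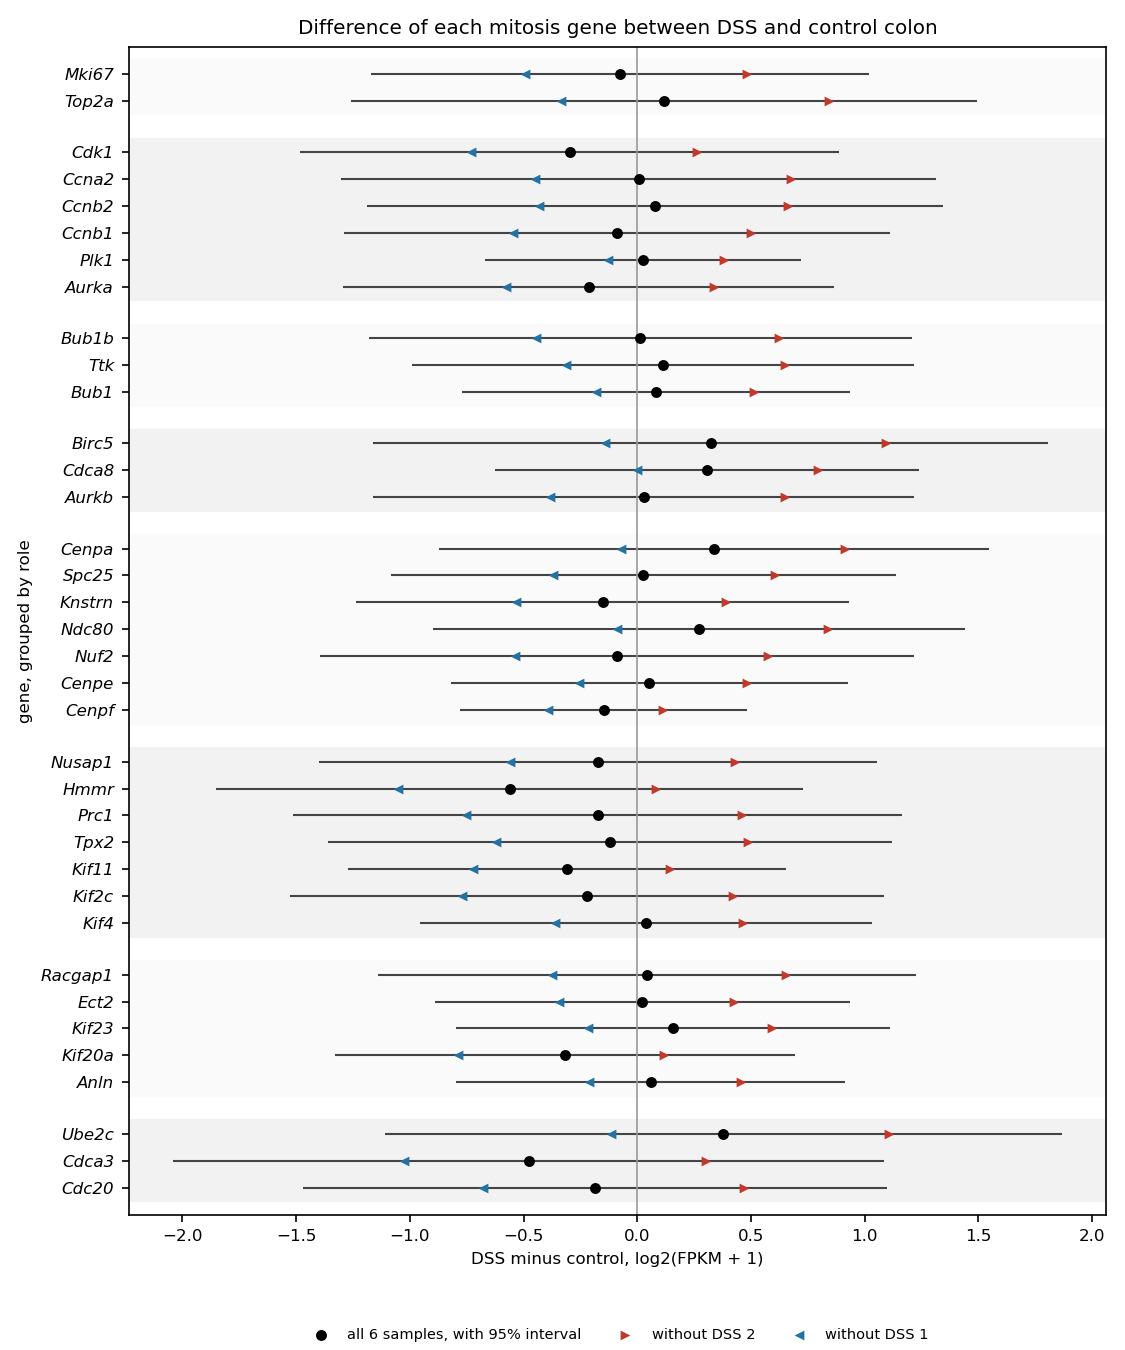
Difference of each mitosis gene, DSS minus control in log2(FPKM + 1), with all 6 samples (black, bars are 95% intervals), without DSS 2 (red) and without DSS 1 (blue). All black bars cross 0, all red points lie above 0 and all blue points below it.

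The direction of the difference rested on which DSS sample was counted. Without DSS 2 all 36 differences were above 0, with a median of 0.48 against 0.18 over all tested genes. Of the 36 genes, 12 had an unadjusted p under 0.05, against 26.9% of all tested genes. The test was passed by 2 in that fit, a share close to the 5.58% of all tested genes called higher. That count therefore does not set the mitosis genes apart. The 2 were Birc5 (log2 difference 1.09 ± 0.22 SE, adjusted p = 0.035 in limma) and Cdca8 (log2 difference 0.79 ± 0.17 SE, adjusted p = 0.0428 in limma), both subunits of the chromosomal passenger complex. Top2a missed the threshold at an adjusted p of 0.0501, and Aurkb, the kinase of that complex, had 0.65 ± 0.21 SE and an adjusted p of 0.109 in the same limma fit. Without DSS 1 all 36 differences were below 0, with a median of -0.41 against 0.12 over all tested genes. None of the 36 passed the limma test in that fit, and 1, Kif20a, had an unadjusted p under 0.05 (0.0262 in limma), against 31.6% of all tested genes.

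Other genes of division followed the same order of samples in part. Of 37 other tested spindle and kinetochore genes, limma called 0 and 2 had an unadjusted p under 0.05, and DSS 2 was the lowest sample for 29. Their median log2 difference from the control mean was 0.53, -0.67 and 0.27 in DSS 1, DSS 2 and DSS 3, against 0.83, -1.20 and 0.27 for the mitosis genes and 0.16, 0.04 and 0.20 for all tested genes. Of 16 tested regulators of mitotic entry and exit, 1 was called. It was Cks2, a small partner of Cdk1, which rose to 97.9, 99.3 and 116 FPKM in DSS colon, against 41.6, 64.6 and 52.1 FPKM in control colon (log2 difference 0.99 ± 0.19 SE, adjusted p = 0.0211 in limma). Cks2 was not low in DSS 2, and its groups did not overlap. Its call was lost without DSS 3, control 1 or control 3 (adjusted p = 0.0787, 0.0556 and 0.0863 in limma). The 16 core subunits of the anaphase-promoting complex and the 23 genes of condensin and cohesin each gave 0 calls in limma, with 4 and 2 at an unadjusted p under 0.05, and DSS 2 was lowest for 7 and 10 of them.

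DNA replication genes, which are expressed in the S phase before mitosis, were lowest in DSS 2 for 17 of the 35 tested. Of the 35, 2 were called higher and 0 lower in DSS. Rrm2, a subunit of ribonucleotide reductase, rose to 13.4, 8.74 and 13.1 FPKM in DSS colon, against 3.30, 3.38 and 3.57 FPKM in control colon (log2 difference 1.51 ± 0.19 SE, adjusted p = 0.00506 in limma). Pola2, a subunit of DNA polymerase alpha, rose to 7.23, 7.26 and 9.64 FPKM in DSS colon, against 3.79, 4.31 and 4.66 FPKM in control colon (log2 difference 0.78 ± 0.18 SE, adjusted p = 0.0378 in limma). DSS 2 exceeded every control for both. Rrm2 kept its call without any 1 sample (adjusted p up to 0.034 in limma). Pola2 lost its call without DSS 2, DSS 3 or any 1 control sample (adjusted p up to 0.12 in limma) and without a filter on low values (adjusted p = 0.0564 in limma). Pcna, the sliding clamp of replication, had 96.9, 69.6 and 83.5 FPKM in DSS colon and 79.1, 92.4 and 74.9 FPKM in control colon, and Mcm2, a subunit of the replicative helicase, had 9.68, 5.05 and 10.5 FPKM in DSS colon and 5.10, 4.52 and 6.79 FPKM in control colon. Neither Pcna nor Mcm2 passed the limma test (adjusted p = 0.966 and 0.279). Of 8 tested G1 cyclins and kinases 0 passed and 0 had an unadjusted p under 0.05 in limma, and Ccnd1, cyclin D1, had 20.4, 11.8 and 22.4 FPKM in DSS colon and 10.2, 9.51 and 15.2 FPKM in control colon.

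Of the factors that control mitotic promoters, 17 were tested and limma called 0, with 6 at an unadjusted p under 0.05. Foxm1, the activator of G2 and mitosis genes, had 2.54, 0.288 and 1.24 FPKM in DSS colon and 1.23, 1.37 and 0.663 FPKM in control colon. Mybl2, which encodes B-Myb, did not pass the filter and had 0.809, 0.177 and 0.599 FPKM in DSS colon and 0.440, 0.511 and 0.365 FPKM in control colon. Both were highest in DSS 1 and lowest in DSS 2, as were 35 of the 36 mitosis genes. Of the repressive partners in the DREAM complex, E2f4 had 26.4, 22.02 and 24.5 FPKM in DSS colon and 26.4, 24.4 and 25.2 FPKM in control colon. Rbl2, the pocket protein p130, had 7.62, 8.80 and 7.35 FPKM in DSS colon and 5.02, 8.38 and 7.79 FPKM in control colon. E2f4 lay between 22.02 and 26.4 FPKM in all 6 samples. Rbl2 was highest in DSS 2, but control 2 was close to it, and Rbl2 was not called (adjusted p = 0.636 in limma). The part of these factors in the levels of the mitosis genes was not tested. Of 13 tested inhibitors and brakes of the cell cycle, 1 was called. Cdkn1a, the kinase inhibitor p21, fell to 64.5, 87.0 and 109 FPKM in DSS colon, against 279, 235 and 171 FPKM in control colon (log2 difference -1.39 ± 0.25 SE, adjusted p = 0.0176 in limma). All DSS samples were below all controls for Cdkn1a, DSS 1 being the lowest. The call of Cdkn1a was lost without control 1 (adjusted p = 0.0636 in limma) and without control 2 (adjusted p = 0.0813 in limma).

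**Figure D4:**
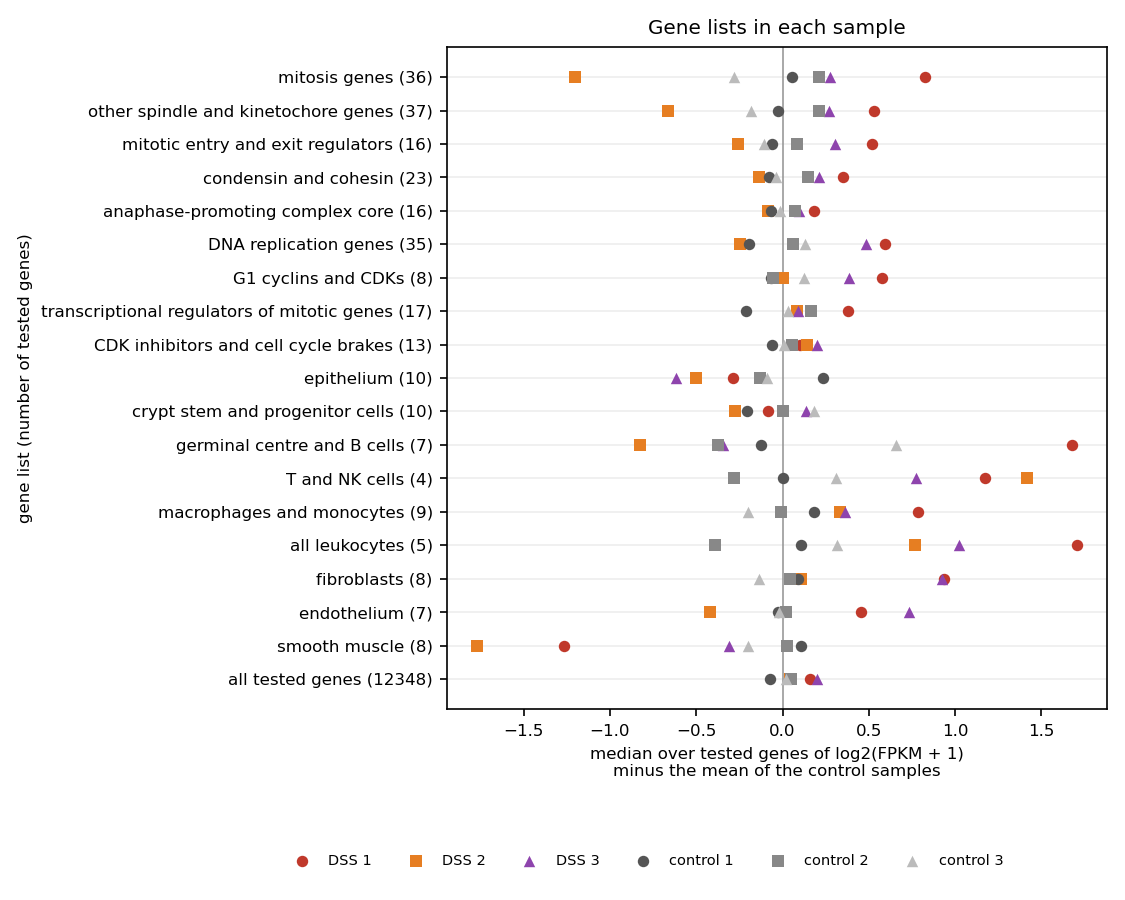
Each row is a gene list with its number of tested genes, and each point the median over that list of log2(FPKM + 1) in 1 sample minus the control mean. The mitosis genes run from -1.20 in DSS 2 to 0.83 in DSS 1, while the medians of all tested genes lie between 0.04 and 0.20 in the DSS samples.

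Markers of cell types were read beside these results, as sums over each list in FPKM. Of 10 epithelial markers limma called 2 lower, Krt8 and Krt19, with 4 at an unadjusted p under 0.05, and all 10 differences were below 0. The sum was between 8804 and 10439 FPKM in DSS colon and between 13285 and 17241 FPKM in control colon, DSS 1 being the highest of the DSS samples. Both calls were lost without DSS 2, DSS 3 or any 1 control sample (adjusted p up to 0.0872 for Krt8 and 0.133 for Krt19 in limma). Of 10 tested markers of crypt stem and progenitor cells limma called 0, with 3 at an unadjusted p under 0.05, and the sum was 109.9, 116 and 144 FPKM in DSS colon and 68.4, 86.5 and 94.8 FPKM in control colon. In that sum every DSS sample lay above every control, whereas the median log2 difference from the control mean over the 10 genes was -0.09, -0.28 and 0.14 in DSS 1, DSS 2 and DSS 3 and -0.21, 0.0021 and 0.18 in the controls, with DSS 2 the lowest. Of the 10 genes, 6 had a mean difference below 0 and 4 above it, with a median of -0.16. Lgr5, the marker of crypt stem cells, did not pass the filter and had 0.284, 0.561 and 0.709 FPKM in DSS colon and 0.540, 1.27 and 1.16 FPKM in control colon. Olfm4 was listed at 0 in all control samples and Ascl2 in DSS 3.

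Lymphoid and stromal lists also differed between the DSS samples. Germinal centre and B cell markers, 7 tested and 0 called in limma with 0 at an unadjusted p under 0.05, summed to 94.0, 19.6 and 17.5 FPKM in DSS colon and to between 29.1 and 51.2 FPKM in control colon. DSS 1 thus had the highest sum of B cell markers, and the sum was low in DSS 3 as well as in DSS 2. By gene, DSS 1 was the highest sample for 4 of the 7 tested B cell markers, against 35 of the 36 mitosis genes. The difference between the groups was above 0 for 3 of the 7 and below 0 for 4. Of these markers, Mef2b was listed at 0 in all samples but control 1. General leukocyte markers, of which Laptm5 and Cd53 rose among 5, summed to 335, 164 and 183 FPKM in DSS colon and to between 64.1 and 119.97 FPKM in control colon. T and NK cell markers, with Cd3d and Cd3g higher among 4 tested, summed to 26.5, 42.4 and 18.3 FPKM in DSS colon and to between 5.79 and 9.35 FPKM in control colon, with DSS 2 the highest sample. Cd3e, Ncr1 and Klrb1c were listed at 0 in DSS 3, and Ncr1 in DSS 2. Macrophage and monocyte markers, with Cd14 and Itgam higher among 9 tested, summed to between 564 and 768 FPKM in DSS colon and between 393 and 489.8 FPKM in control colon. Neutrophil markers, 7 of 7 tested called higher, summed to between 4079 and 6961 FPKM in DSS colon and between 8.05 and 30.8 FPKM in control colon. Endothelial markers, with Egfl7 higher among 7, summed to 75.1, 39.9 and 80.4 FPKM in DSS colon and to between 42.5 and 50.3 FPKM in control colon, DSS 2 being the lowest of all samples. Fibroblast markers, with Pdpn higher among 8, summed to 1031, 618 and 1101 FPKM in DSS colon and to between 537 and 664 FPKM in control colon. Smooth muscle markers, with Tpm2 lower among 8, summed to 1856, 1264 and 3510 FPKM in DSS colon and to between 3774 and 4747 FPKM in control colon. Across all tested genes 6.34% were called higher and 2.56% lower. Differences were above 0 for 4 of 7 endothelial, 7 of 9 macrophage and monocyte and 3 of 4 T and NK cell markers tested. They were above 0 for every tested leukocyte, neutrophil and fibroblast marker and below 0 for every smooth muscle marker. Cd53, Cd3g and Cd14 kept their calls without any 1 sample. Laptm5, Cd3d and Tpm2 lost theirs without any 1 control sample (adjusted p up to 0.0888, 0.0812 and 0.111 in limma), and Itgam lost its call without control 2 or control 3 (up to 0.0665). Egfl7 and Pdpn lost theirs without DSS 3 or any 1 control sample (up to 0.11 and 0.156). The part of these lists in the levels of the mitosis genes was not tested.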

How the data were processed

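RNA from 6 mouse colon samples was sequenced, 3 with DSS-induced colitis and 3 controls, grouped by their titles. The labels' protocols name TRIZOL extraction, selection of poly(A) RNA and second-strand synthesis without strand information, so reads of both strands were treated alike. The deposited values are FPKM per gene, per the file headers. The submitters' processing notes name TopHat2 2.1.1 and mm10, and the sources used here do not name the program behind the FPKM values or its annotation. Of 24421 rows per sample, 5363 were at 0 in every sample, and 27 had names turned into dates, none a mitosis gene. No steps of single reads were found when low genes were compared between samples (no bin of 0.02 log2 units held more than 1.55% of the ratios). Depth is therefore unknown, and no counting interval is given. Gapdh, used by every cell, was listed at 0, 21.4 and 36.1 FPKM in DSS 1, DSS 2 and DSS 3. It was listed at 2.00, 0.117 and 0.145 FPKM in control 1, control 2 and control 3. A value at or near 0 therefore need not mean absence of the transcript.

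Values were taken as log2(FPKM + 1) for the 12348 genes that reached 1 FPKM in 3 or more samples. They were fitted on group with limma 3.58.1 under R 4.3.3, with a mean trend and robust moderation. Tests were two-sided, p-values were adjusted by Benjamini and Hochberg over all of these genes, and the threshold was 0.05. This scale understates the change of low genes. The fitting code was tested on simulated data. Members and gene lists were chosen with earlier results of these data known, so their counts are descriptions beside those of all tested genes. Named were every member, up to 4 genes of each other list with the smallest unadjusted p, and a fixed set of regulators and markers, not all of which are described. Promoter windows are RefSeq on GRCm38.p6 and gene positions are GENCODE vM21 on GRCm38. BLAST+ 2.17.0 was used to find near-identical transcripts, at 95% identity over 200 bases. Protein sequences were not used here. Figures were drawn with matplotlib 3.10.9 and Python 3.11.15. Alternatives were other pseudocounts, filters, scalings and moderation, the replicate number as a block, and each sample left out. The order of samples under other scalings was added after the data were seen.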

Additional observations from a re-analysis of the deposited data

How the results depend on the processing

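No mitosis gene passed the limma test in any of the 8 alternatives that kept all 6 samples, with the lowest adjusted p between 0.44 and 0.608. Without 1 sample, between 0 and 2 were called higher and 0 lower, Birc5 and Cdca8 being called without DSS 2. Of all tested genes, 783 were called higher and 316 lower; without 1 sample the range was 209 to 1165 higher and 79 to 606 lower, both lowest without control 2 and highest without DSS 1. With median-of-ratios scaling 529 were higher and 513 lower. The median log2 difference of the 36 genes was -0.0366 and -0.000633 with pseudocounts of 0.1 and 0.5, and -0.102 and -0.123 with upper-quartile and median-of-ratios scaling. Median-of-ratios scaling left 11 genes with DSS 1 and DSS 3 above every control, where the unscaled values gave 17. Each scaling put DSS 3 below every control for 5 genes, where the unscaled values gave 2. Of all tested genes, DSS 3 was below every control for 21.6% without scaling, 32.8% with upper-quartile and 35.3% with median-of-ratios scaling. These changes follow from the scaling factors. The replicate block, with same-numbered samples correlating at 0.0818, 0.129 and 0.00308 in their deviations, left 640 genes higher and 255 lower and called 0 mitosis genes, and it ended the calls of Cdkn1a (adjusted p = 0.053), Pola2 (0.0536) and Tpm2 (0.0551) in limma. Without a filter on low values, the calls of Pola2, Krt19 (adjusted p = 0.0808), Pdpn (0.0811), Egfl7 (0.0635) and Tpm2 (0.0615) were lost in limma. A filter at 0.1 FPKM ended those of Krt19 (0.0511) and Pdpn (0.0529), and Pdpn was also lost with upper-quartile (0.0644) and median-of-ratios (0.0681) scaling. The numbers were not taken to pair the samples.

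Differences near 0 changed sign with the setting, none of them called. Median-of-ratios scaling gave log2 differences of -0.0289 for Top2a, -0.0727 for Ccnb2, -0.146 for Ccna2, -0.0379 for Bub1, -0.122 for Bub1b, -0.0095 for Ttk, -0.111 for Aurkb and -0.12 for Plk1. It also gave -0.0571 for Cenpe, -0.123 for Spc25, -0.0823 for Kif4, -0.0984 for Racgap1, -0.115 for Ect2, -0.0674 for Anln, -0.0228 for Foxm1 and -0.141 for Pcna. Upper-quartile scaling gave -0.00726 for Top2a, -0.0509 for Ccnb2, -0.124 for Ccna2, -0.0197 for Bub1, -0.102 for Bub1b, -0.0903 for Aurkb and -0.0989 for Plk1. It gave -0.0404 for Cenpe, -0.102 for Spc25, -0.0637 for Kif4, -0.0776 for Racgap1, -0.0946 for Ect2, -0.0483 for Anln, -0.00782 for Foxm1 and -0.119 for Pcna. A pseudocount of 0.1 gave -0.011 for Ccna2, -0.0778 for Bub1b, -0.0308 for Aurkb, -0.0425 for Cenpe, -0.0127 for Kif4, -0.00951 for Racgap1 and -0.0416 for Foxm1. A pseudocount of 0.5 gave -0.00281 for Ccna2 and -0.0265 for Bub1b. The cause of each was not tested.

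Leaving out 1 sample turned the sign of every mitosis gene at least once, the lower end of each range coming without DSS 1 (for Plk1 without DSS 3) and the upper end without DSS 2. The ranges of chromosome and entry genes were -0.495 to 0.483 for Mki67, -0.334 to 0.845 for Top2a, -0.73 to 0.264 for Cdk1, -0.547 to 0.502 for Ccnb1 and -0.434 to 0.664 for Ccnb2. Ccna2 ranged over -0.451 to 0.675, Aurka over -0.579 to 0.339 and Plk1 over -0.176 to 0.38. Checkpoint and passenger genes ranged over -0.18 to 0.515 (Bub1), -0.445 to 0.625 (Bub1b), -0.314 to 0.648 (Ttk), -0.382 to 0.651 (Aurkb), -0.143 to 1.09 (Birc5) and -0.00177 to 0.795 (Cdca8). Kinetochore genes ranged over -0.0737 to 0.912 (Cenpa), -0.258 to 0.481 (Cenpe), -0.392 to 0.114 (Cenpf), -0.536 to 0.573 (Nuf2), -0.0871 to 0.837 (Ndc80), -0.371 to 0.606 (Spc25) and -0.534 to 0.39 (Knstrn). Spindle genes ranged over -0.722 to 0.146 (Kif11), -0.773 to 0.419 (Kif2c), -0.362 to 0.465 (Kif4), -0.559 to 0.431 (Nusap1), -0.623 to 0.486 (Tpx2), -1.05 to 0.0815 (Hmmr) and -0.751 to 0.462 (Prc1). Cytokinesis genes ranged over -0.79 to 0.117 (Kif20a), -0.216 to 0.592 (Kif23), -0.377 to 0.655 (Racgap1), -0.346 to 0.427 (Ect2) and -0.21 to 0.458 (Anln). Partners of the anaphase-promoting complex ranged over -0.117 to 1.11 (Ube2c), -0.677 to 0.469 (Cdc20) and -1.02 to 0.304 (Cdca3). Other genes ranged over -0.282 to 0.447 (Foxm1), -0.118 to 0.00634 (E2f4), -0.0295 to 0.291 (Rbl2) and -0.0992 to 0.136 (Pcna). Of 504 values of mitosis genes under alternatives, 400 kept their sign and side of the threshold, 102 changed sign and 2 passed the threshold. Depth is unknown and limits what can be said of genes under 1 FPKM in DSS 2.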
